A study of Mus musculus with 12 samples.

Results

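Angiogenic and hypoxia signalling genes were examined in cardiomyocytes with and without desmin, the intermediate filament protein of muscle. The genes were chosen by symbol: the ligands Vegfa, Vegfb, Vegfc, Angpt1, Angpt2, Apln and Adm, the receptor Aplnr, and the transcription factors Hif1a and Epas1. All 10 were found, each as 1 row among the 21493 genes counted in every library, and all 10 were among the 13158 genes with enough counts to test. Poly-A RNA came from hearts of 3-month-old mice, as cardiomyocytes taken straight after enzymatic perfusion. The mice had both desmin copies (Des+/+) or none (Des-/-), and either swam as an exercise stress (swim) or did not (non-swim). That gave 4 groups of 3 libraries each. The labels give no strain or sex. The methods state that cells of several mice went into each library, so the replicates are pools and the p-values measure the spread between pools.

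Vascular endothelial growth factors are secreted ligands: Vegfa drives blood vessel growth through the receptors Kdr and Flt1, Vegfb binds Flt1, and Vegfc binds Flt4, the receptor known for lymphatic growth. Angiopoietins act on the endothelial receptor Tek, where Angpt1 stabilises vessels and Angpt2 can oppose it, while apelin and adrenomedullin are peptides that act on vessels and on the heart. Hif1a and Epas1 are the oxygen-regulated subunits of hypoxia-inducible factors (HIF), which pair with Arnt and bind DNA at a short core motif. Their activity is set largely by protein breakdown after hydroxylation by the Egln enzymes, so the RNA level of Hif1a or Epas1 is not a reading of HIF activity.

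Promoter windows of the 2 ligands whose level differed between genotypes, Vegfa and Vegfb, and of Adm, a ligand that did not pass that test, are shown first, so that the HIF core motif can be seen where it occurs. Each is read 5′ to 3′ on the gene's strand from RefSeq, build GRCm38.p6, from 250 bases before a transcript start to 50 after it. Capitals mark ACGTG or GCGTG on either strand, so their reverse complements CACGT and CACGC are capitals too. The Vegfa window is chr17:46032328-46032627, minus strand, the Vegfb window chr19:6987602-6987901, minus strand, and the Adm window chr7:110627407-110627706, plus strand.
Vegfa: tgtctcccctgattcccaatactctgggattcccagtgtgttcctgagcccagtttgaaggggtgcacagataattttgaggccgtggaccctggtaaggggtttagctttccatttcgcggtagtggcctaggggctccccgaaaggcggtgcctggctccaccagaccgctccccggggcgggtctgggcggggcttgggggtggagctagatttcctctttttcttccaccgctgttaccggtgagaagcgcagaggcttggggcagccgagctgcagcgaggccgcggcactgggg
Vegfb: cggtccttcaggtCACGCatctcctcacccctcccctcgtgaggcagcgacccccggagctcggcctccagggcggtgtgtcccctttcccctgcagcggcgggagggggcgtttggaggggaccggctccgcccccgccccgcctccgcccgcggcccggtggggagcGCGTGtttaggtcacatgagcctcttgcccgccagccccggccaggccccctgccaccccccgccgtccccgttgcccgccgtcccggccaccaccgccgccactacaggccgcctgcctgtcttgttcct
Adm: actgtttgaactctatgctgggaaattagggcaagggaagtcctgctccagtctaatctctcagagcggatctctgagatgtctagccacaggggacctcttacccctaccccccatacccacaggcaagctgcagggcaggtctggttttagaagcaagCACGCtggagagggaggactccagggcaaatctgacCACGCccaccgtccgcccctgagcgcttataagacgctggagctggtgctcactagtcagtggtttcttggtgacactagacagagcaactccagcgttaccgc

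In the Vegfb window the motif began 237 and 81 bases before the start, and in the Adm window 90 and 54 bases before it. The Vegfa window held none of these letters. A second RefSeq window of Vegfa, at chr17:46025114-46025413 inside the gene, held 2, at 218 and 211 bases before its start. RefSeq windows were at hand for 6 of the 10 genes, 7 windows in all, and 4 of the 6 genes had the motif: Vegfa, Vegfb, Adm and Hif1a. The windows of Vegfc and Apln had none. Angpt1, Angpt2, Aplnr and Epas1 had no entry. The motif is common, in 43.8% of the 32851 windows of this length and in 46.7% of the 27025 genes with one, so a match is a description of the letters and not a binding site.

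The libraries differed in ways that touch several genes below. Reads assigned to genes ran from 4320819 to 12072443 per library, with the Des-/- swim group lowest, at 4320819 to 6521963. The counting matched some uniquely placed reads to no gene, which does not place them outside genes. Their share was 34.0% to 39.3% in Des+/+ non-swim and 45.9% to 50.4% in Des+/+ swim libraries. It was 34.2% to 52.3% in Des-/- non-swim and 57.2% to 64.5% in Des-/- swim libraries. Des itself was at 973 to 3647 CPM (the reads of a gene relative to the scaled library total) in Des+/+ and at 50.3 to 101 CPM in Des-/- libraries. Cardiomyocyte markers (10 genes, such as Myh6 and Tnnt2, none at 0) summed to 74780 to 111000 CPM in Des+/+ non-swim and 7032 to 32440 CPM in Des-/- non-swim libraries, with the third Des-/- replicate lowest. After swimming they summed to 36540 to 59360 CPM in Des+/+ and 17920 to 30150 CPM in Des-/- libraries. In bulk RNA, fewer cells of a type and less RNA per cell cannot be told apart. The 12 endothelial markers were present in all groups, at 4948 to 5984, 6684 to 8867, 4619 to 6727 and 7071 to 8719 CPM in the order Des+/+ non-swim, Des+/+ swim, Des-/- non-swim and Des-/- swim, so transcripts known from endothelial cells were measured here as well.

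Per kilobase of exon, which allows genes to be compared, Epas1 was the highest of the 10 genes in all 4 groups. In Des+/+ non-swim libraries its level was 244 ± 3.90 CPM per kb (SD, n = 3), above Vegfb at 175.5 ± 42.4, Aplnr at 76.9 ± 37.4, Vegfa at 53.8 ± 13.6 and Hif1a at 20.5 ± 0.722. Vegfc followed at 16.8 ± 1.39, then Apln at 14.2 ± 10.2, Adm at 12.5 ± 2.62, Angpt2 at 8.78 ± 1.34 and Angpt1 at 7.83 ± 0.531. Libraries of Aplnr and Vegfa overlapped, as did those of each neighbouring pair from Vegfc down to Angpt1. The order changed below the top: Vegfb, the second gene in both Des+/+ groups and in Des-/- swim libraries, was the third in Des-/- non-swim libraries, at 40.8 ± 15.2 CPM per kb, where it overlapped Aplnr above and Hif1a below. Angpt1 was the lowest gene in all 4 groups.

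**Figure D1:**
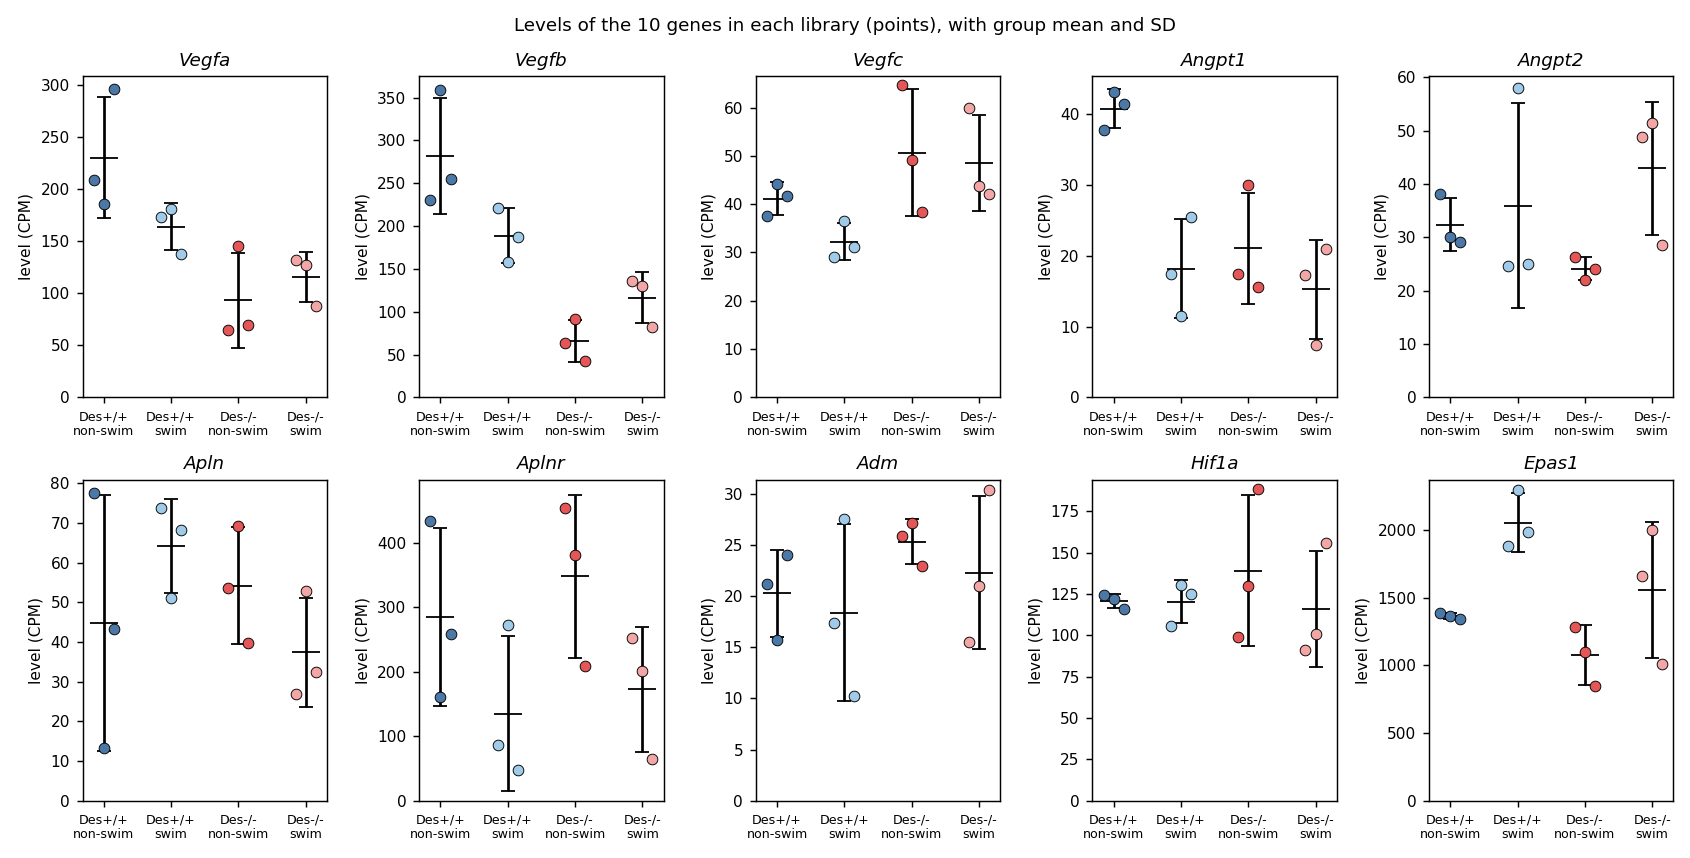
Level of each of the 10 genes (CPM, linear axis from 0) in each of the 12 libraries, by group; points are libraries in replicate order, with the group mean (horizontal line) and SD (bars). Vegfa and Vegfb libraries of the Des-/- non-swim group all lie below those of the Des+/+ non-swim group, whereas Aplnr and Apln libraries spread widely within groups.

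The first comparison was that of genotypes without swimming. The 2 ligands Vegfa and Vegfb were lower in Des-/- libraries, as a share of all RNA counted, Vegfb at 0.233 of its Des+/+ level. The level per cell was not measured. The other 8 genes did not pass the test. Thus 2 of 10 genes were called (edgeR quasi-likelihood test, adjusted p under 0.05), both lower, where 32.0% of all tested genes were called, 14.0% higher and 18.0% lower. At an unadjusted p under 0.05 the count was 3, beside 43.7%, and with DESeq2 it was 3, beside 36.4%. Under the study's filter (a p read here as unadjusted, a minimum change and a minimum count) it was 3, beside 32.0%. The paper's methods do not say whether that p is adjusted, and a supplementary legend gives an adjusted p. That filter was applied here to the edgeR results, whereas the study filtered DESeq2 results. The third gene was Angpt1 each time. With upper-quartile scaling 2492 of 4526 called genes were higher, against 1840 of 4210 here, and after swimming 948 of 1404 against 659 of 1392; the median log2 change of all genes was then 0.14 without and 0.12 after swimming. The share of the 10 genes that was called is no larger than that background. The median log2 change of the 10 was -0.07, beside 0.04 over all genes tested.

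Vegfb (ENSMUSG00000024962, GRCm38 chromosome 19, 6982473 to 6987651, minus strand), the ligand of Flt1 that is abundant in heart muscle, was at 231, 359 and 255 CPM in the Des+/+ non-swim libraries and at 63.2, 90.9 and 42.4 CPM in the Des-/- non-swim libraries. The lowest Des+/+ library was above every Des-/- library. The log2 change was -2.10 (SE 0.30, edgeR adjusted p 9.69e-04), a fold of 0.233. Without any 1 of the 6 libraries compared it stayed between -2.42 and -1.87, with a highest adjusted p of 0.00592. Over all 12 libraries, the genes whose log2 CPM was most like that of Vegfb were Cyc1 and Uqcrc1, both at Pearson r 0.998 among 12157 genes compared. Both encode subunits of mitochondrial respiratory complex III.

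Vegfa (ENSMUSG00000023951, GRCm38 chromosome 17, 46016993 to 46032369, minus strand), the ligand of Kdr and Flt1, was at 209, 186 and 296 CPM in Des+/+ non-swim and at 64.8, 146 and 69.2 CPM in Des-/- non-swim libraries. The groups did not overlap, and replicate 2 of the Des-/- group came nearest to the Des+/+ libraries. The log2 change was -1.31 (SE 0.31, edgeR adjusted p 0.00872), a fold of 0.404. Leaving out 1 of the 6 libraries gave -1.78 to -1.09, with a highest adjusted p of 0.0373. Its closest genes over the 12 libraries were Alas1 (r 0.935) and Ppp1r3b (r 0.933), which encode the first enzyme of haem synthesis and a glycogen-targeting subunit of protein phosphatase. With Des-/- non-swim replicate 3 left out, the library with the least cardiomyocyte marker RNA, Vegfb and Vegfa were still the only members called, at -1.87 and -1.14.

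All 10 cardiomyocyte markers were also called lower in this comparison, beside 18.0% of all tested genes, with a median log2 change of -2.16. Set against the summed markers of the same library, Vegfb was at 0.308% to 0.323% in Des+/+ non-swim and at 0.280% to 0.603% in Des-/- non-swim libraries. Vegfa was at 0.167% to 0.373% and 0.394% to 0.984%. Relative to the marker sum, then, neither gene was lower in all Des-/- libraries, and Vegfa was higher in all of them. What part the level of cardiomyocyte RNA had in the fall of these 2 genes was not tested. Fibroblast markers summed to 3494 to 3879 CPM in Des+/+ and 8568 to 36850 CPM in Des-/- libraries, none at 0. All 10 were called higher, beside 14.0% of all tested genes.

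**Figure D2:**
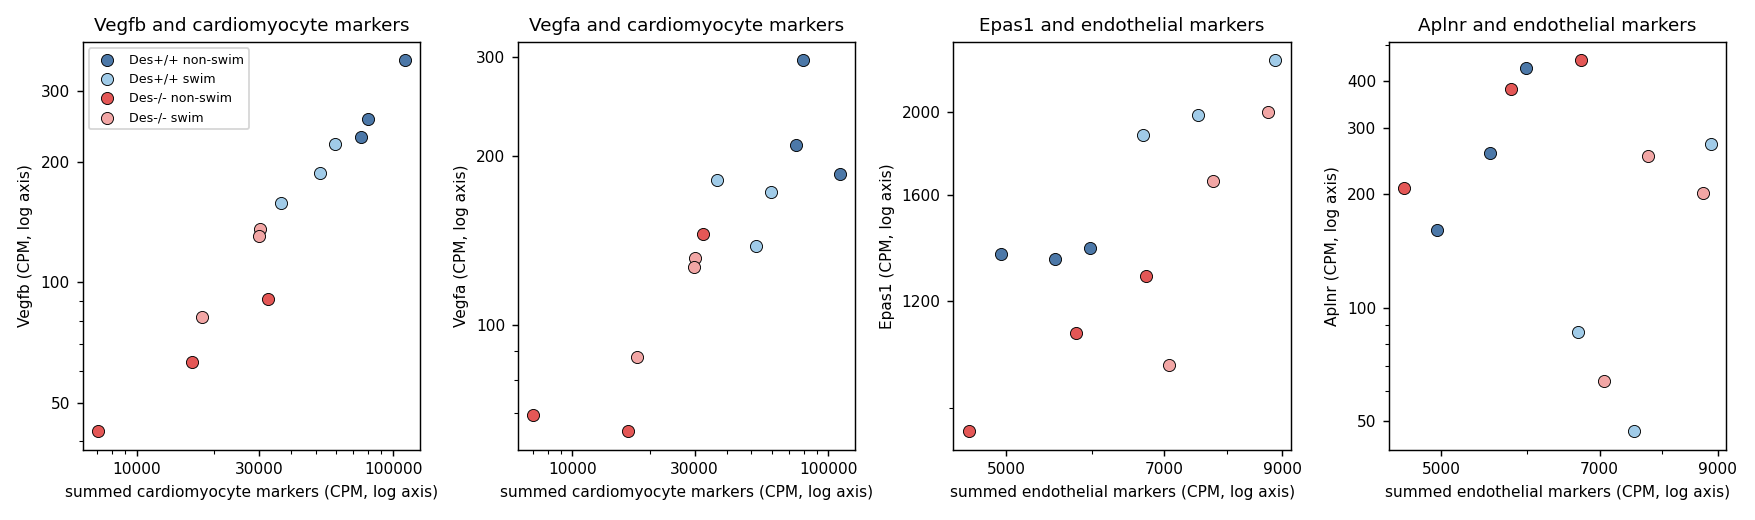
Level of Vegfb and Vegfa against the summed CPM of 10 cardiomyocyte markers, and of Epas1 and Aplnr against the summed CPM of 12 endothelial markers; each point is 1 of 12 libraries, coloured by group, on log axes. Vegfb libraries fall along a band from 42.4 CPM at the lowest marker sum of 7032 CPM to 359 CPM at the highest, 111000 CPM, while Aplnr libraries show no such band.

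The angiopoietins were lower in the Des-/- libraries without passing the test. Angpt1 (ENSMUSG00000022309, GRCm38 chromosome 15, 42424723 to 42676977, minus strand), the stabilising ligand, was at 37.7, 43.1 and 41.4 CPM in Des+/+ non-swim and at 17.4, 30.0 and 15.7 CPM in Des-/- non-swim libraries. These groups did not overlap, and the log2 change was -0.96 (SE 0.37, edgeR adjusted p 0.0656). DESeq2 called it, at an adjusted p of 0.0406. Angpt2 was at 38.1, 30.0 and 29.1 CPM against 26.3, 22.1 and 24.1 CPM, also with no overlap, at a log2 change of -0.42 (SE 0.32, adjusted p 0.339). Epas1 was the fifth gene whose groups did not overlap, at 1388, 1364 and 1344 CPM against 1286, 1102 and 846 CPM (log2 change -0.34, SE 0.25, adjusted p 0.324). So 5 of 10 genes were lower with no overlap and 0 were higher, beside 24.9% and 23.0% of all tested genes.

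Vegfc, Apln, Aplnr, Adm and Hif1a overlapped between genotypes. Vegfc was at 37.5, 44.2 and 41.8 CPM in Des+/+ non-swim and at 64.6, 49.1 and 38.3 CPM in Des-/- non-swim libraries, a log2 change of 0.30 (SE 0.20, edgeR adjusted p 0.268). Hif1a was even in Des+/+ non-swim libraries, at 124, 122 and 116 CPM, and uneven in Des-/- non-swim libraries, at 98.7, 130 and 189 CPM (log2 change 0.20, SE 0.24, adjusted p 0.548). The vasodilator peptide Adm was low throughout, between 10.2 and 30.3 CPM over the 12 libraries. Apln ranged from 13.3 to 77.7 CPM and its receptor Aplnr from 161 to 434 CPM within the Des+/+ non-swim group alone, so differences of their size could not be resolved here: the SEs were 0.48 and 0.64 on the log2 scale, against 0.20 for Vegfc.

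The ratio of Vegfc to Vegfa reads gave a measure that library scaling cannot move. Cell make-up can move it, and that part was not tested. Vegfc reads per Vegfa read numbered 0.179, 0.238 and 0.141 in Des+/+ non-swim libraries and 0.997, 0.338 and 0.554 in Des-/- non-swim libraries. After swimming they numbered 0.168, 0.201 and 0.226 in Des+/+ and 0.455, 0.344 and 0.478 in Des-/- libraries. All 6 Des-/- libraries were above all 6 Des+/+ libraries. How many other gene pairs separate in this way was not counted. The ratio alone shows unequal change of the pair and not which of them changed. Tested singly by edgeR without swimming, Vegfa was called lower (adjusted p 0.00872) and Vegfc was not called (adjusted p 0.268). Neither was called after swimming.

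**Figure D3:**
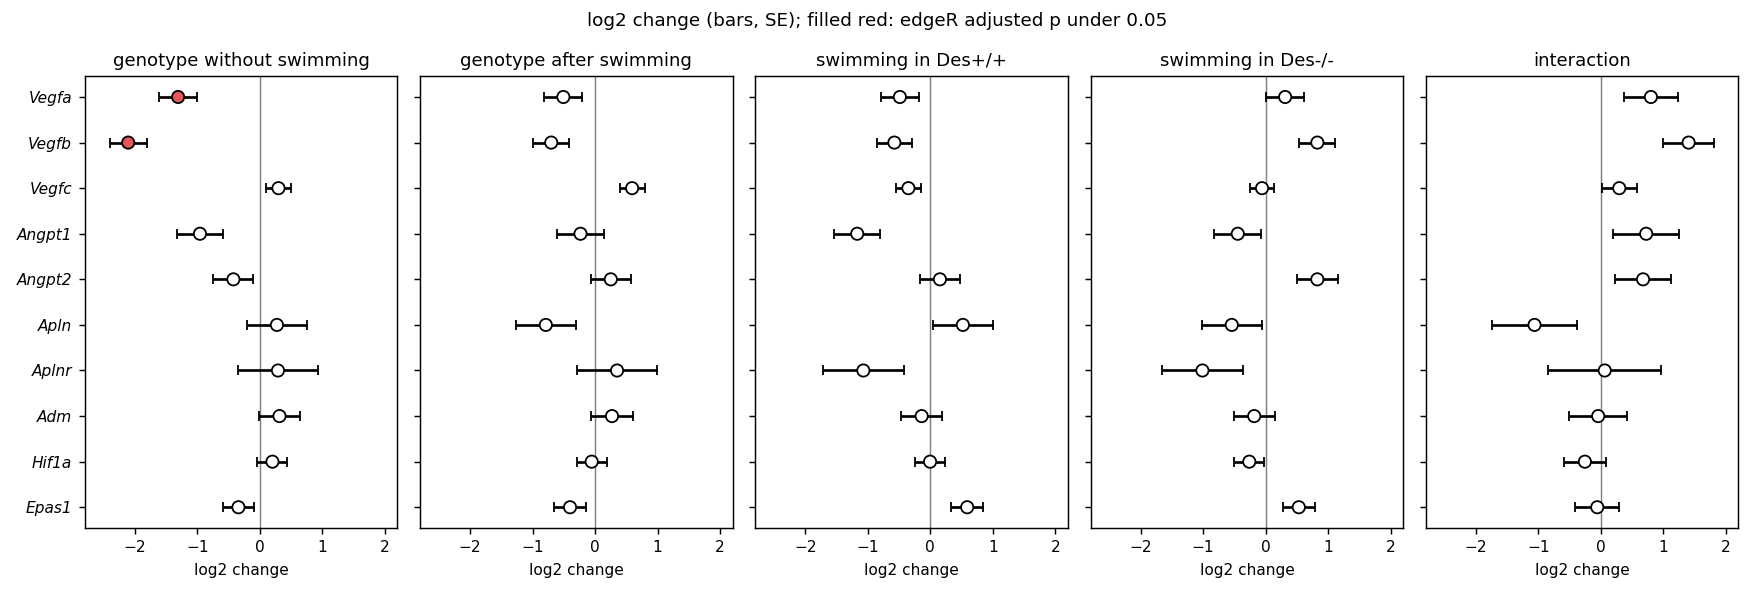
log2 change of each of the 10 genes (points) with its SE (bars) in 5 comparisons: Des-/- against Des+/+ without and after swimming, swim against non-swim in each genotype, and the difference between the swimming changes (interaction). Filled red points are genes with an edgeR adjusted p under 0.05, which are Vegfa and Vegfb in the first panel and none in the others.

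The second comparison was that of genotypes after swimming. edgeR called 0 of the 10 genes and DESeq2 also 0, beside 10.6% of all tested genes by edgeR and 17.7% by DESeq2, and 2 genes, Vegfb and Vegfc, had an unadjusted p under 0.05, beside 30.5%. The study's filter passed 1, Vegfb, beside 17.6%. Vegfb was at 222, 158 and 187 CPM in Des+/+ swim and at 136, 131 and 81.9 CPM in Des-/- swim libraries. The groups did not overlap, and the log2 change was -0.70 (SE 0.29, edgeR adjusted p 0.126). Vegfa was at 173, 182 and 138 CPM against 132, 127 and 87.9 CPM, again with no overlap (log2 change -0.51, SE 0.30, adjusted p 0.279).

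Vegfc (ENSMUSG00000031520, GRCm38 chromosome 8, 54077606 to 54187096, plus strand) stood the other way. It was at 29.1, 36.5 and 31.2 CPM in Des+/+ swim and at 60.0, 43.7 and 42.0 CPM in Des-/- swim libraries, with every Des-/- library above every Des+/+ library. Its log2 change was 0.59 (SE 0.20, edgeR adjusted p 0.077). Its adjusted p was 0.0448 when 1 Des-/- non-swim library, replicate 3, was dropped, which lies outside this comparison but enters the shared estimate of spread. In all, 2 of the 10 genes were lower and 1 higher with no overlap, beside 18.6% and 17.3% of all tested genes. Apln, at 73.7, 51.0 and 68.2 CPM against 26.9, 52.9 and 32.5 CPM, had the largest log2 change of the 10 genes in size, -0.79, but with an SE of 0.48 and overlapping libraries (adjusted p 0.29). Of the 10 cardiomyocyte markers, 1 was called lower after swimming, beside 5.57% of all tested genes. All 10 had a negative log2 change (median -0.83), and 4 had an unadjusted p under 0.05, beside 30.5%. Vegfb was at 0.360% to 0.433% of the marker sum in Des+/+ swim and at 0.437% to 0.457% in Des-/- swim libraries.

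The third comparison was that of swimming in Des+/+ mice. edgeR called 0 of the 10 genes, beside 0.0912% of all tested genes, and DESeq2 called 1, Angpt1, beside 6.17%. Angpt1 fell in that DESeq2 test, with a log2 change of -1.15 (adjusted p 0.0415). By edgeR its log2 change was -1.17 (SE 0.37, adjusted p 0.129), from 37.7, 43.1 and 41.4 CPM to 17.5, 11.6 and 25.5 CPM, and the groups did not overlap. Epas1 (ENSMUSG00000024140, GRCm38 chromosome 17, 86753700 to 86833410, plus strand), which is prominent in endothelium, was at 1388, 1364 and 1344 CPM without and at 1878, 2298 and 1985 CPM with swimming. Each swim library was above each non-swim library (log2 change 0.59, SE 0.25, edgeR adjusted p 0.221). Angpt1 and Epas1 were the 2 genes with an unadjusted p under 0.05, beside 20.5% of all tested genes, and the study's filter passed 1, Angpt1, beside 10.3%.

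Epas1 moved beside the endothelial markers, whose sum was 4948 to 5984 CPM without and 6684 to 8867 CPM with swimming in Des+/+ libraries. As a share of that sum, Epas1 was at 23.2% to 27.6% without and 25.9% to 28.1% with swimming, which overlapped. None of the 12 endothelial markers was called by edgeR, beside 0.0912% of all tested genes, and 3 had an unadjusted p under 0.05, beside 20.5%. The genes most like Epas1 over the 12 libraries were Tmem140 (r 0.961) and Adgrf5 (r 0.941). In Des-/- non-swim libraries Epas1 was at 18.3% to 19.1% of the endothelial sum, below all 3 Des+/+ non-swim libraries.

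Vegfa, Vegfb and Vegfc were also lower with no overlap in Des+/+ swim libraries, at log2 changes of -0.49, -0.58 and -0.35 (SE 0.30, 0.29 and 0.20). None passed, with edgeR adjusted p of 0.378, 0.276 and 0.334. With Angpt1, 4 of the 10 genes were lower with no overlap and 1, Epas1, was higher, beside 18.7% and 12.5% of all tested genes. Aplnr was at 434, 161 and 258 CPM without and 86.3, 272 and 47.0 CPM with swimming. The libraries overlapped, and the log2 change of -1.07 had an SE of 0.65 (adjusted p 0.363). The cardiomyocyte marker sum was lower in every Des+/+ swim library than in any Des+/+ non-swim library. The median log2 change of the 10 markers was -0.79. edgeR called 0 of them, beside 0.0912% of all tested genes, and 1 had an unadjusted p under 0.05, beside 20.5%.

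The fourth comparison was that of swimming in Des-/- mice. edgeR and DESeq2 each called 0 of the 10 genes, beside 0.0228% and 2.58% of all tested genes, and 2 genes, Vegfb and Angpt2, had an unadjusted p under 0.05, beside 16.7%. The study's filter passed the same 2, beside 8.60%. Angpt2 was at 26.3, 22.1 and 24.1 CPM without and at 48.8, 51.4 and 28.6 CPM with swimming. It was the only 1 of the 10 genes with no overlap, where 10.4% of all tested genes were higher and 9.00% lower with no overlap (log2 change 0.83, SE 0.32, edgeR adjusted p 0.255). Vegfb was at 63.2, 90.9 and 42.4 CPM without and at 136, 131 and 81.9 CPM with swimming, a log2 change of 0.83 (SE 0.29, adjusted p 0.223). Replicate 3 was the lowest library in both groups, and its swim value lay below 1 non-swim library.

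Epas1 was at 1286, 1102 and 846 CPM without and 1661, 1998 and 1012 CPM with swimming in Des-/- libraries (log2 change 0.53, SE 0.25, edgeR adjusted p 0.311). Its log2 change was thus of similar size to that in Des+/+ libraries, and the difference between them was -0.06 (SE 0.36, adjusted p 0.944). Aplnr, at 455, 382 and 209 CPM against 253, 202 and 64.0 CPM, had the same sign as in Des+/+ libraries (log2 change -1.01, SE 0.64, adjusted p 0.433). Replicate 3 was again the lowest library in each Des-/- group for Aplnr.

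The interaction asks whether the swimming change differed between genotypes. edgeR called 0 of the 10 genes and 0 of all tested genes, while 16.3% of all tested genes had an unadjusted p under 0.05. Vegfb was the 1 member with such a p: its log2 change with swimming was -0.58 in Des+/+ and 0.83 in Des-/- libraries, a difference of 1.40 (SE 0.41, edgeR adjusted p 0.199). DESeq2 called this difference, at an adjusted p of 0.0425, beside 2.49% of all tested genes, and the study's filter passed it too, beside 13.1%. The cardiomyocyte markers had a median difference of 1.39 in the same term. Apln had the largest difference in the other direction, at -1.06 (SE 0.68, edgeR adjusted p 0.435).

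Ratios within a library, which do not depend on scaling, were taken for 4 further pairs. Vegfa reads per Vegfb read numbered 0.517 to 1.16 in Des+/+ non-swim, 0.739 to 1.15 in Des+/+ swim, 1.02 to 1.63 in Des-/- non-swim and 0.969 to 1.07 in Des-/- swim libraries, and the groups overlapped in all 4 comparisons. Apln reads per Aplnr read numbered 0.179, 0.0826 and 0.168 in Des+/+ non-swim and 0.854, 0.188 and 1.45 in Des+/+ swim libraries, with no overlap. In Des-/- libraries this ratio was 0.118 to 0.191 without and 0.106 to 0.507 with swimming, which overlapped. Angpt2 reads per Angpt1 read numbered 1.01, 0.697 and 0.702 in Des+/+ non-swim, 1.41, 5.03 and 0.983 in Des+/+ swim, 1.51, 0.736 and 1.54 in Des-/- non-swim and 2.81, 6.91 and 1.37 in Des-/- swim libraries. Replicate 2 was the highest library in both swim groups, and groups overlapped within each genotype. Hif1a reads per Epas1 read were close together in Des+/+ libraries, at 0.0864 to 0.0897 without and 0.0563 to 0.0629 with swimming, with no overlap. In Des-/- libraries they spread over 0.0768 to 0.223 without and 0.0506 to 0.154 with swimming, with replicate 3 the highest in each group.

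The receptors of these ligands were taken from a list of 11 partners of VEGF and angiopoietins. In the comparison of genotypes without swimming, 1 of the 11, Vegfd, was called, higher, and 0 were lower, beside 14.0% and 18.0% of all tested genes. After swimming the same gene was again the only 1. Of all tested genes, 5.01% were then called higher and 10.6% in either direction. Vegfd, a ligand of Flt4, was at 1.18, 5.84 and 4.51 CPM in Des+/+ non-swim and 11.7, 11.4 and 17.8 CPM in Des-/- non-swim libraries. The log2 change was 1.82 (SE 0.61, edgeR adjusted p 0.0392). After swimming it was at 3.19, 3.21 and 1.99 CPM against 10.5, 5.90 and 30.2 CPM, a log2 change of 2.47 (SE 0.63, adjusted p 0.0328). No Des-/- library was below any Des+/+ library in either comparison. The call was lost in 5 of the 6 fits that each left out 1 library compared, in both comparisons, with adjusted p up to 0.101 without and 0.121 after swimming. The exceptions were the fits that dropped Des-/- non-swim replicate 2 and Des-/- swim replicate 2. Fibroblast markers moved the same way, and their part was not tested.

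The 8 receptors and co-receptors of that list passed no test by edgeR. Kdr was at 1580, 1120 and 1180 CPM in Des+/+ non-swim and 1380, 1230 and 933 CPM in Des-/- non-swim libraries, which overlapped (log2 change -0.13, SE 0.30, adjusted p 0.777). Flt1, the receptor of Vegfa and Vegfb, was at 846, 674 and 806 CPM against 831, 633 and 477 CPM (log2 change -0.26, SE 0.26, adjusted p 0.468). Tek, the angiopoietin receptor, was at 438, 384 and 343 CPM against 422, 356 and 271 CPM (log2 change -0.15, SE 0.22, adjusted p 0.627). With swimming in Des+/+ mice edgeR called 0 of the 11, beside 0.0912% of all tested genes, 4 had an unadjusted p under 0.05, beside 20.5%, and DESeq2 called 4, all higher, beside 6.17% in either direction. Flt1 did not pass by edgeR, at 1010, 1760 and 1100 CPM with swimming, each above all 3 non-swim libraries (log2 change 0.73, SE 0.26, edgeR adjusted p 0.157).

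Of 7 partners of apelin and adrenomedullin, 5 had enough counts to test (Apela and Adm2 did not), and edgeR and DESeq2 called 0 in either comparison of genotypes, with 0 at an unadjusted p under 0.05. Of all tested genes, edgeR called 32.0% without and 10.6% after swimming. Calcrl, the adrenomedullin receptor, was at a mean of 126 CPM in both non-swim groups (log2 change 0.00, SE 0.25, adjusted p 0.994). Ramp3, a subunit that joins Calcrl, was at 30.9, 21.5 and 36.0 CPM in Des+/+ non-swim and 71.1, 55.7 and 184 CPM in Des+/+ swim libraries, with no overlap. Its log2 change was 1.81 (SE 0.45, edgeR adjusted p 0.091). DESeq2 called 1 gene of this list there, beside 6.17% of all tested genes, edgeR called 0, beside 0.0912%, and 2 had an unadjusted p under 0.05, beside 20.5%.

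HIF partners and regulators numbered 12, all tested, and 4 were called in the comparison of genotypes without swimming, all lower. Of all tested genes, 18.0% were called lower and 32.0% in either direction. The 4 were Egln1, Egln3, Hif1an and Cited2. Egln1 and Egln3 are the hydroxylases that mark HIF subunits for breakdown, and Hif1an and Cited2 restrain HIF's use of its co-activators. Egln3 was at 146, 75.1 and 133 CPM in Des+/+ and 20.7, 46.9 and 18.7 CPM in Des-/- non-swim libraries, with no overlap (log2 change -2.04, SE 0.37, edgeR adjusted p 0.00227). Egln1 was at 673, 697 and 644 CPM against 276, 304 and 166 CPM (log2 change -1.43, SE 0.25, adjusted p 0.00216). Both stayed called without any 1 of the 6 libraries. The count of 4 ranged from 2 to 4 on dropping a library, with 2 only when Des+/+ non-swim replicate 2 was dropped. Arnt, the partner subunit, was at means of 75.8 and 77.2 CPM (log2 change 0.03, SE 0.11, adjusted p 0.881). All 10 cardiomyocyte markers were lower in the same libraries (median log2 change -2.16), and their part was not tested. After swimming edgeR called 0 of the 12, beside 10.6% of all tested genes, DESeq2 called 2, beside 17.7%, and 7 had an unadjusted p under 0.05, beside 30.5%. Egln3 was then at 54.0, 87.0 and 83.7 CPM against 43.2, 37.0 and 30.0 CPM (log2 change -1.03, SE 0.36, edgeR adjusted p 0.0844).

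HIF target genes were a list of 36, of which 33 were tested. Without swimming 10 were called lower and 3 higher in Des-/- libraries, 13 of 33, beside 32.0% of all tested genes, and their median log2 change was 0.03. The calls made up 10 of 33 lower, beside 18.0% of all tested genes, and 3 of 33 higher, beside 14.0%. On dropping 1 of the 12 libraries the total ranged from 9 to 16. Of the 10 that fell, Hk2, Pfkl, Aldoa, Pgk1, Ldha and Pdk1 act in glucose use, Bnip3 and Higd1a at mitochondria, P4ha2 in collagen hydroxylation, and Vldlr in lipoprotein uptake. Vldlr was at 343, 554 and 318 CPM against 56.3, 136 and 32.6 CPM (log2 change -2.44, SE 0.44, edgeR adjusted p 0.00229). Bnip3, a mitophagy receptor, was at 118, 159 and 157 CPM against 43.0, 50.2 and 39.5 CPM (log2 change -1.71, SE 0.20, adjusted p 8.2e-04). All 10 cardiomyocyte markers were lower in the same libraries.

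The 3 genes called higher were Hmox1, Bhlhe40 and Eno1, and the libraries of all 3 overlapped between genotypes. Their count was 0 in the fit of only the 6 libraries compared. It was also 0 when Des+/+ non-swim replicate 1 or 2, Des-/- non-swim replicate 3 or any Des+/+ swim library, outside this comparison, was dropped. It was 1 when Des+/+ non-swim replicate 3 or Des-/- swim replicate 2 was dropped, and 5 when Des-/- non-swim replicate 1 or 2 was. With upper-quartile scaling, with no filter and under the study's filter it was 5. Hmox1, which breaks down haem, was at 20.4, 16.5 and 17.9 CPM in Des+/+ non-swim libraries and at 19.5, 17.2 and 223 CPM in Des-/- non-swim libraries. Its log2 change of 2.25 (SE 0.78, edgeR adjusted p 0.0468) rested on replicate 3 of the Des-/- group: without that library it was 0.01, at an adjusted p of 0.977. Bhlhe40, a transcriptional repressor, was at 97.6, 87.7 and 150 CPM against 138, 182 and 323 CPM (log2 change 0.94, SE 0.32, adjusted p 0.0422), and 0.52, at an adjusted p of 0.193, without the same library. That library also stood apart in marker sums: macrophage markers were at 4273 CPM, against 688 and 419 CPM in the other Des-/- non-swim libraries, fibroblast markers at 36849 CPM against 9813 and 8568 CPM, and genes of the response to cell isolation at 9530 CPM against 5467 and 4808 CPM. Their part in the rise of these genes was not tested. Near-identical copies of Eno1 exist in the genome, so its count is uncertain. Whether the other target genes, those called lower included, have such copies was not checked.

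After swimming 6 of the 33 targets were called, all lower: Vldlr, Hk2, Pgk1, Bnip3, P4ha2 and Higd1a. Of all tested genes, 5.57% were called lower and 10.6% in either direction. Hk2, a hexokinase, was at 233, 176 and 321 CPM in Des+/+ swim and 128, 92.7 and 86.4 CPM in Des-/- swim libraries (log2 change -1.25, SE 0.30, edgeR adjusted p 0.0275). Vldlr was at 201, 130 and 188 CPM against 69.2, 59.9 and 54.3 CPM (log2 change -1.50, SE 0.43, adjusted p 0.0461). Of the 6 fits that each left out 1 library compared, all 6 lost the Vldlr call, with edgeR adjusted p up to 0.128. The Hk2 call was lost in 4 of them, with adjusted p up to 0.106. Upper-quartile scaling and the endothelial marker covariate also lost the Vldlr call. Single libraries decided this count: it was 1 when Des+/+ swim replicate 1 or 3 or Des-/- swim replicate 3 was dropped, and 2 when Des-/- swim replicate 1 or 2 was. It was 3 when Des+/+ non-swim replicate 1 or 3, which are outside this comparison, was dropped. Swimming called 0 of the 33 targets by edgeR in either genotype, beside 0.0912% of all tested genes in Des+/+ and 0.0228% in Des-/- mice. In Des+/+ mice 6 had an unadjusted p under 0.05, beside 20.5% of all tested genes, and in Des-/- mice 8 did, beside 16.7%. DESeq2 called 3 in each, beside 6.17% and 2.58%.

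**Figure D4:**
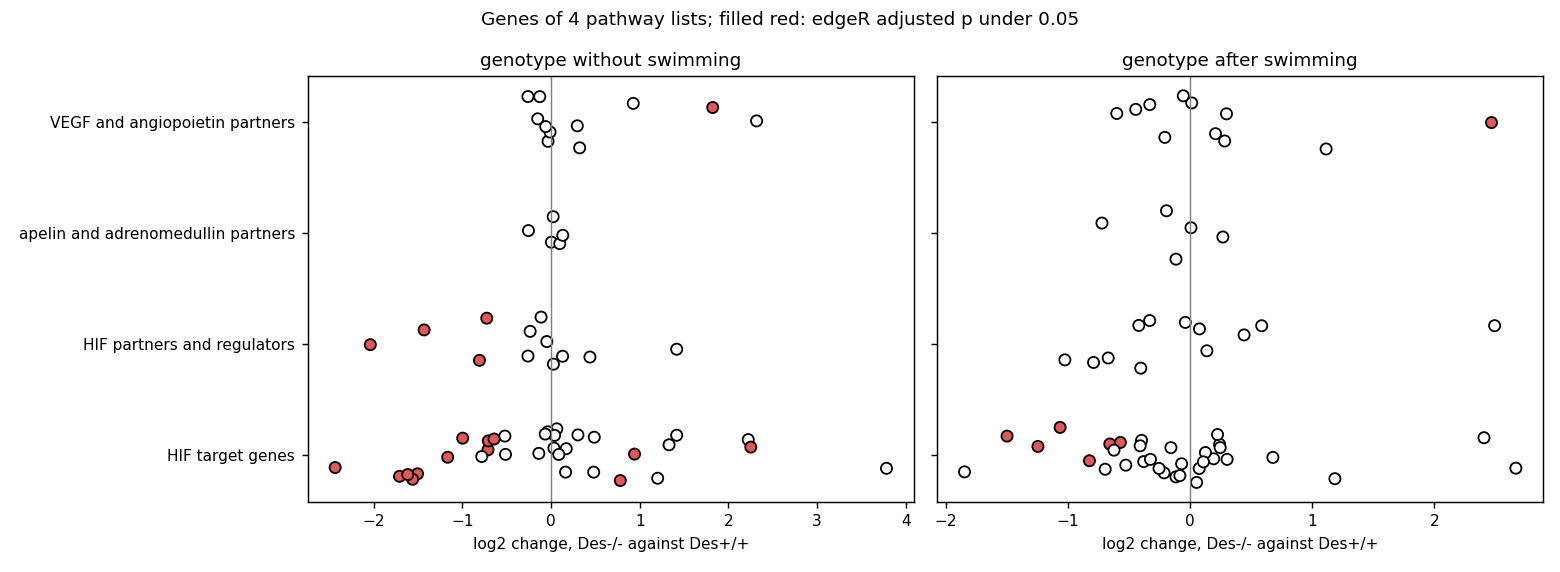
log2 change between Des-/- and Des+/+ libraries of each tested gene of 4 pathway lists, without swimming (left) and after swimming (right); each point is 1 gene, spread vertically only for legibility, and filled red points have an edgeR adjusted p under 0.05. Red points of the HIF regulators lie at -0.73 or lower in the left panel, and the right panel has none in that list.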

How the data were processed

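Poly-A RNA from adult cardiomyocytes of 4 groups of 3 libraries was analysed, with groups taken from the sample labels. The files deposited by the authors hold raw counts per gene. Per the submitters' processing notes, the authors used HISAT2 2.2.1, SAMtools 1.13 and HTSeq on GRCm38; reads were counted in reverse-strand mode. The labels name a library kit that does not mark strand and the methods a directional one. Of the 10 genes, Angpt1 has an antisense neighbour overlapping 737 exonic bases and Hif1a has an antisense (330 bases) and a same-strand (148 bases) neighbour, none of them in the tables used here.

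Counts were fitted in R 4.3.3 with edgeR 4.0.16 (filterByExpr, 13158 of 21493 genes, TMM scaling, 4 group means over all 12 libraries, 8 residual degrees of freedom, quasi-likelihood tests of 5 contrasts), with Benjamini-Hochberg adjustment over all genes tested. Rows of unassigned reads were left out. Each SE was the size of the edgeR log2 change divided by the square root of its quasi-likelihood F. The SDs and SEs include the spread between libraries, while floors cover counting error only. CPM per kb used the union of exons in GENCODE M21. Likeness was Pearson's r of log2 CPM (prior count 2) over 12 libraries, among genes averaging 20 or more counts, and is given with no test because libraries share their group. The procedure was tested on simulated data. Alternatives were DESeq2 1.42.0, other scalings, no filter, only the 6 libraries compared, a replicate block, an endothelial marker covariate, the study's filter (p of at most 0.05 read as unadjusted, log2 change of at least 0.6, count of at least 20) and leaving out each library.

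The genes and lists were chosen with earlier results of these data known. Named pathway genes were the 2 called with the largest rise and the 2 with the largest fall in each list and comparison; receptors, Arnt, Calcrl, Ramp3, Hif1an and Cited2 were named after their values were seen. The replicate numbers come from the labels, which do not say what they mark; deviations of same-numbered libraries correlated above 0.1 in all 3 pairs only for swimming in Des-/- mice (r 0.365, 0.316 and 0.602).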

Additional observations from a re-analysis of the deposited data

How the results depend on the processing

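A floor of 3 counts was 0.262 to 0.656 CPM per library, and the lowest value of the 10 genes was 7.44 CPM (Angpt1, Des-/- swim). The SEs did not simply follow depth. With 3 libraries a group they were largest for Aplnr, up to 0.65 between 2 groups and 0.90 in the interaction. Vegfc, with fewer reads, had an SE of 0.20 between genotypes without swimming. Without swimming, the calls of Vegfa and Vegfb held in all 20 alternatives, with 2 to 3 of the 10 genes called; the third was Angpt1. After swimming, the count of 0 became 1 under the study's filter (Vegfb) and ranged from 0 to 1 on leaving out a library (Vegfc). For swimming in Des+/+ it became 1 with DESeq2 and 1 with the study's filter (Angpt1 both times), for swimming in Des-/- 2 with the study's filter (Vegfb and Angpt2), and for the interaction 1 with DESeq2 and 1 with the study's filter (Vegfb both times). The cause was not tested, except that the p of the study's filter was read here as unadjusted.

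For swimming in Des-/- mice same-numbered libraries deviated together, but the labels do not say whether the numbers pair them. There the replicate block left 0 of the 10 genes called. Vegfb changed by 0.85 (edgeR adjusted p 0.2) and Angpt2 by 0.78 (edgeR adjusted p 0.25). With the block, Vegfa and Vegfb changed by -1.38 and -2.14 between genotypes without swimming, and it changed no other call of the 10 genes. Hmox1 was no longer called with the block (1.74, adjusted p 0.132).

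Signs turned only for changes that were not called. The sign of Hif1a turned in the comparison of genotypes after swimming with upper-quartile scaling (0.0393) and the endothelial covariate (0.0025). For swimming in Des+/+ it turned with RLE scaling and with DESeq2 (0.0147 each), upper-quartile scaling (0.0077), no filter (0.0346), only the 6 libraries (0.0672) and the endothelial covariate (0.3462). That covariate also turned Angpt2 (-0.3587) and Apln (-0.0915) for swimming in Des+/+ and Hif1a (0.1211) for swimming in Des-/-, and no filter turned Aplnr in the interaction (-0.0093).

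On leaving out each of the 12 libraries, the sign of an uncalled change turned 36 times. The log2 changes between genotypes without swimming that turned ranged over Apln -0.1596 to 0.9241 and Hif1a -0.0782 to 0.3955. The log2 changes between genotypes after swimming that turned ranged over Hif1a -0.3286 to 0.0918, Angpt1 -0.5197 to 0.0829, Aplnr -0.0568 to 1.3709 and Adm -0.0247 to 0.6838. The log2 changes with swimming in Des+/+ that turned ranged over Hif1a -0.0674 to 0.0805, Angpt2 -0.3850 to 0.3661 and Adm -0.5535 to 0.1438. The log2 changes with swimming in Des-/- that turned ranged over Vegfc -0.2416 to 0.1552, Hif1a -0.5354 to 0.0281 and Adm -0.4780 to 0.0247. The log2 changes in the interaction that turned ranged over Aplnr -0.3790 to 1.0814, Adm -0.3396 to 0.3704, Epas1 -0.2782 to 0.1733 and Hif1a -0.5311 to 0.0191.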

Other observations

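Among the other genes, the pairs most like each member by log2 CPM over the 12 libraries were Nxpe2 (r 0.94) and Bcl2l12 (r 0.903) for Vegfc, Gnb5 (r 0.932) and Fuca2 (r 0.916) for Angpt1, Rdx (r 0.894) and Prr14 (r 0.867) for Angpt2, and Ccnd1 (r 0.914) and Sez6l2 (r 0.862) for Apln. For Aplnr they were St8sia4 (r 0.898) and Fam192a (r 0.897), for Adm Zfp668 (r 0.888) and Tsen15 (r 0.869), and for Hif1a Stt3b (r 0.933) and Dusp5 (r 0.92). These are the highest of 12157 values each, so high values are found for any gene, and the 12 points share their groups.

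Marker lists of other cell types also differed between genotypes. Macrophage markers were called higher in Des-/- libraries for 8 of 10 genes without swimming, with a sum of 225 to 342 CPM in Des+/+ and 419 to 4273 CPM in Des-/- libraries, and for 0 of 10 by edgeR after swimming (0 at an unadjusted p under 0.05). Of all tested genes, 14.0% were called higher without and 5.01% after swimming. Genes of the response to cell isolation, such as Fos and Egr1, were called higher for 9 of 10 without and 8 of 10 after swimming. Of 9 mural markers, 1 was called, lower, without swimming, beside 18.0% of all tested genes; of 4 lymphatic endothelial markers tested, 1 was called higher and 1 lower.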
